A study of Bos taurus with 8 samples.

Results

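The mitochondrial carrier family SLC25 was examined in liver of young Holstein bull cattle given an egg-yolk antibody against bacterial lipopolysaccharide (LPS). Its members were the non-control array probes whose gene name in the deposited files is SLC25A followed by a number, which gave 39 probes for 39 genes among 15008 probes. Of these, 36 cleared background on 4 or more of the 8 arrays and were tested. RNA was measured on 1-colour Agilent arrays, which report the brightness of Cy3-labelled RNA on 60-base probes. The 4 g group and the 0 g (control) group are named for the antibody dose per head, which went into the rumen once daily through a fistula for 14 days. Both groups consist of the same 4 fistulated bulls, numbers 19, 20, 23 and 24, aged 5 to 6 months in the trial, so each animal is its own control and n = 4 pairs. All 8 arrays come from cattle that had eaten hay, then a high-grain diet for 2 days to bring on subacute ruminal acidosis (SARA), then hay again, and the time label is 2 days after that challenge. The trial rotated its doses in a Latin square over 11 cattle. Its 2 g dose and the other cattle were not analysed here, and the labels do not give the period in which an animal received a dose. The tissue label says liver, whereas the extraction protocol in the same labels says rumen epithelium.

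SLC25 proteins sit in the inner mitochondrial membrane, apart from a few that work in the outer membrane or in peroxisomes, and exchange metabolites that cannot cross it unaided. In liver they bring phosphate and ADP to ATP synthase and return ATP, pass citrate, malate and aspartate between matrix and cytosol, carry ornithine and citrulline for the urea cycle, and admit acylcarnitines for fatty acid oxidation. Other members supply cofactors, nucleotides and iron, and the uncoupling proteins form a branch of the same family. These roles are known mainly from human and rodent proteins.

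Levels below are log2 processed signals minus the 75th percentile of that array, and they are compared between arrays for 1 probe at a time. A difference is the mean within-animal 4 g minus 0 g difference of such levels, fitted with limma, with its standard error (SE) or 95% confidence interval (CI). In these bulk samples, fewer cells of a type and less RNA per cell cannot be told apart.

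Some arrays stood apart. Dim were animal 19 at 4 g and animal 20 at 0 g, with 75th percentiles of 125.8 and 126.3, while the other 6 arrays lay between 218.0 and 311.7. All 10 hepatocyte markers were well above background on every array, and of 9 rumen epithelium markers only 2 to 4 were, with KRT14, KRT4, DSG1, DSG3 and TP63 on 0 arrays. Pancreatic acinar markers averaged 7.64 on the 0 g array of animal 23, against −4.14 to −2.35 on the others. The others were not free of them. Of 9 such markers, 4 were well above background on each array of animals 19 and 20. On the remaining arrays of animals 23 and 24, 7 to 8 were. The highest levels on these others were 3.26 to 4.61. The labels of animals 23 and 24 are in doubt. Among probes with 2 clearly separated levels, 9 showed 1 level within animal 19 and 1 within animal 20 but differed between the 2 arrays of animal 23 and in the same way between those of animal 24. GIMAP6, for example, stood at −0.58, −4.98, −4.83 and −4.67 on the 4 g arrays of animals 19, 20, 23 and 24, against 0.09, −5.40, 0.37 and 0.32 on their 0 g arrays. Another 7 such probes had 1 level within each of the 4 animals, and 0 placed animal 23 at one level and animal 24 at the other. Most of the probes with separated levels, 145, instead set the 2 dim arrays apart from the other 6, and 6 had other patterns. SLC25A5, SLC25A6 and SLC25A44 were among the 145. Results that rest on animals 23 and 24 are therefore given beside those of animals 19 and 20, which also lie in another row of the slide.

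The probes of 4 carriers are printed because both dim arrays lay below the other 6 in each of them and because 3 of the 4 carry a stretch typical of the family. They were read from the deposited array files, 5′ to 3′, with coordinates on the cattle assembly UMD 3.1 (bosTau6). The files give neither exons nor untranslated regions. SLC25A5 lies at chrX:3700039-3700098 on the plus strand. SLC25A6 lies on an unplaced scaffold, Un_GJ060129, from 3884 to 3943 on the plus strand. SLC25A11 lies at chr19:27091421-27091480 on the plus strand. SLC25A21 lies at chr21:47313658-47314613 on the minus strand, a span longer than the 60-base probe. Capitals mark matches to a coding pattern written to resemble the repeated carrier signature of the family: GANGG, then any 13 bases, T, any 5 bases, and GGN, where N is any base.
SLC25A5: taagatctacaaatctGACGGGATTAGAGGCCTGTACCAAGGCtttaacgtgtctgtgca
SLC25A6: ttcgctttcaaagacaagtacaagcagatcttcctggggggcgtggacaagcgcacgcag
SLC25A11: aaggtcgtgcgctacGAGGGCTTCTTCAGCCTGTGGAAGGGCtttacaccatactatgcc
SLC25A21: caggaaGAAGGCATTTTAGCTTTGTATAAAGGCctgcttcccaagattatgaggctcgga
The pattern was found in 3 of the 39 SLC25 probes, all on the sense strand, and in 41 of all 15008 probes (0.273%), with both strands searched.

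The dose comparison asked whether the antibody at 4 g, set against 0 g, went with other levels of carrier transcripts. None of the 36 tested carriers passed an adjusted p of 0.05 with limma (Benjamini-Hochberg over 10985 probes), against a background of 0% of all tested probes. At an unadjusted p under 0.05, 1 carrier was counted, SLC25A33, or 2.78% of the family against 1.09% of all probes. It was lower at 4 g, as were 0.737% of all probes. The family's median difference was 0.03, the same as the 0.03 over all tested probes. Of the 36 carriers, 20 lay above 0 and 16 below, or 55.6% above 0 against 55.1% of all probes.

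The intervals were wide for several carriers. The median half-width of the 95% CI was 0.75 on the log2 scale, a 1.68-fold difference, against 0.70 (1.63-fold) over all probes. The interval left out a 2-fold difference in both directions for 24 of 36 carriers (66.7%), against 64.3% of all probes. Among the 12 carriers whose interval reached a 2-fold difference were SLC25A5, SLC25A6, SLC25A11, SLC25A44, SLC25A30 and SLC25A33. Within single animals, the family's median difference was −0.14 in animal 19, 0.06 in animal 20, 0.12 in animal 23 and 0.09 in animal 24.

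**Figure D1:**
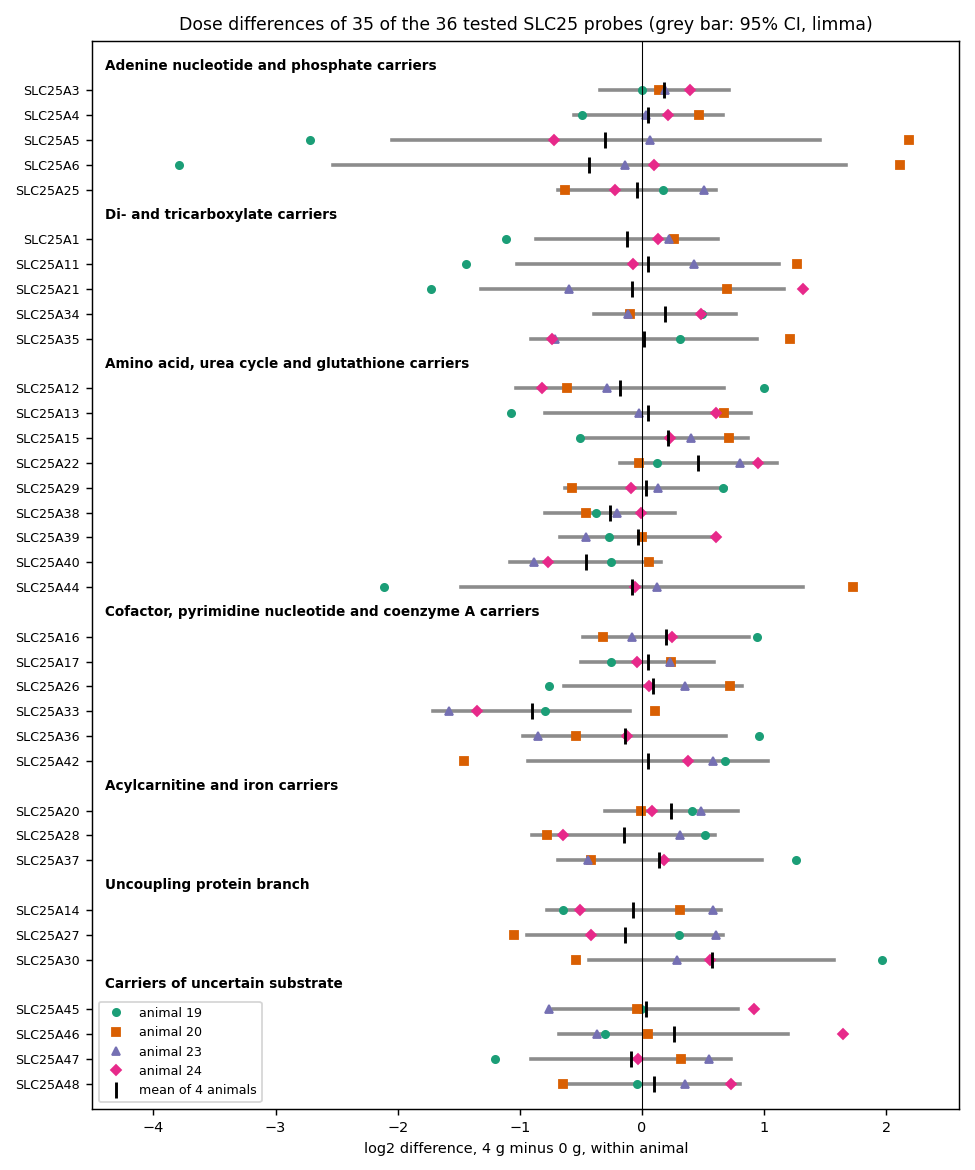
Within-animal log2 differences, 4 g minus 0 g, of 35 of the 36 tested SLC25 probes (x axis), grouped by role, with 1 symbol per animal, a black tick for the mean and a grey bar for its 95% CI from limma. SLC25A33 alone has a bar that stays off 0, at −1.71 to −0.10, and SLC25A5 and SLC25A6 have the widest bars, with animals 19 and 20 at opposite ends.

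Few carriers had the same sign in all 4 animals. Higher at 4 g in 4 of 4 animals were 2 carriers, SLC25A3 among them, or 5.56% of the family against 3.17% of all probes. Lower in 4 of 4 animals was SLC25A38, or 2.78% against 2.08%. These shares rest on 2 carriers and 1 carrier, and several of the steps were close to 0.

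Carriers of adenine nucleotides and phosphate drive the export of ATP. Of 7 on the array 5 were tested, 2 were above 0 and 3 below, and 0 passed either threshold. The phosphate carrier SLC25A3 (chr5:63092487-63092546) stood at 1.72, 1.79, 2.33 and 2.48 on the 4 g arrays of animals 19, 20, 23 and 24, against 1.72, 1.65, 2.14 and 2.08 on their 0 g arrays. The groups overlapped, and both arrays of animals 23 and 24 lay above those of animals 19 and 20. Its difference was 0.18 (95% CI −0.34 to 0.71), with steps of 0.00 to 0.39 in single animals.

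The ADP/ATP translocases exchange cytosolic ADP for matrix ATP. SLC25A4 (chr27:14549642-14549701), the form of heart and muscle, stood at 4.06, 4.52, 4.79 and 4.96 on the 4 g arrays, against 4.55, 4.06, 4.76 and 4.75 on the 0 g arrays, in the same order of animals. SLC25A5, a form of proliferating and many other cells, stood at −2.13, 0.38, 0.74 and 0.53 at 4 g, against 0.58, −1.81, 0.68 and 1.25 at 0 g. SLC25A6, another widely expressed form, stood at −2.12, 1.30, 1.45 and 1.53 at 4 g, against 1.67, −0.81, 1.59 and 1.43 at 0 g. In all of them the lowest level on the 4 g arrays belonged to animal 19 and the lowest on the 0 g arrays to animal 20, which are the dim arrays. Their differences were 0.05 (SE 0.25), −0.30 (SE 0.73) and −0.43 (SE 0.87). The testis form SLC25A31 was well above background on 0 arrays.

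SLC25A25, a calcium-regulated carrier of ATP-magnesium and phosphate, differed by −0.04 (95% CI −0.69 to 0.61). The probe that the files name SLC25A23 matches SLC25A41 in the current RefSeq table, a related carrier. It was well above background on 2 arrays, both at 0 g, and was not tested. SLC25A24, which the files hold under another name and which the rule therefore left out, differed by 0.07 (SE 0.23).

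Carriers of di- and tricarboxylates link the citric acid cycle with the cytosol. All 5 on the array were tested, 3 were above 0 and 2 below, and their differences ran from −0.12 in SLC25A1 to 0.19 in SLC25A34. The citrate carrier SLC25A1 supplies carbon for fatty acid synthesis. It averaged 1.88 ± 0.36 at 4 g and 2.00 ± 0.31 at 0 g (SD, n = 4 each), with a difference of −0.12 (95% CI −0.87 to 0.62). Its probe has no coordinates in the files. SLC25A11, which exchanges 2-oxoglutarate for malate in the malate-aspartate shuttle, stood at −1.48, −0.55, −0.07 and −0.21 at 4 g, against −0.04, −1.82, −0.51 and −0.13 at 0 g. The dim array was again the lowest of each group, and the difference was 0.05 (95% CI −1.02 to 1.12).

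SLC25A21, a carrier of 2-oxoadipate from lysine and tryptophan breakdown, was well above background on 4 arrays, and not on either dim array. Its difference was −0.08 (95% CI −1.32 to 1.16). SLC25A35, an orphan relative, was also well above background on 4 arrays, 2 in each group, and differed by 0.02 (SE 0.38). SLC25A34, another orphan, differed by 0.19 (SE 0.24).

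Carriers of amino acids and glutathione serve the urea cycle, transamination and redox defence. Of 10 on the array 9 were tested, 4 were above 0 and 5 below, and their differences ran from −0.46 in SLC25A40 to 0.46 in SLC25A22. The liver aspartate/glutamate carrier SLC25A13 (citrin; chr4:13346024-13346083) averaged 2.23 ± 0.45 at 4 g and 2.18 ± 0.41 at 0 g (SD, n = 4 each). Its relative SLC25A12 differed by −0.18 (95% CI −1.03 to 0.67). The ornithine/citrulline carrier SLC25A15 (chr12:21801108-21801167) stood at 0.49, 1.09, 1.40 and 1.30 at 4 g, against 1.00, 0.37, 1.00 and 1.07 at 0 g, and differed by 0.21 (95% CI −0.46 to 0.87). SLC25A2, a close relative of SLC25A15, was well above background on 0 arrays.

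The glutamate carrier SLC25A22 (chr29:50839609-50839668) stood at 3.80, 3.70, 3.59 and 4.34 at 4 g, against 3.68, 3.72, 2.79 and 3.40 at 0 g. The groups overlapped, and the gap lay in animals 23 and 24. There the difference was 0.87, against 0.05 in animals 19 and 20, and over 4 animals it was 0.46 (95% CI −0.18 to 1.11; limma, adjusted p = 1.00, and 0.971 to 1.00 over the alternatives). SLC25A40, a relative of the mitochondrial glutathione carrier, went the other way in the same animals. It stood at −3.62, −3.52, −3.81 and −3.73 at 4 g, against −3.37, −3.57, −2.94 and −2.97 at 0 g. Its difference was −0.82 in animals 23 and 24, −0.10 in animals 19 and 20, and −0.46 (95% CI −1.08 to 0.16) over all of them.

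SLC25A39, the mitochondrial glutathione carrier, differed by −0.03 (SE 0.26). SLC25A38, a glycine carrier needed for heme synthesis, stood at −0.73, −0.37, −0.52 and −0.45 at 4 g, against −0.36, 0.09, −0.32 and −0.44 at 0 g. It was lower at 4 g by 0.38, 0.46, 0.20 and 0.01 in the 4 animals, and its difference was −0.26 (95% CI −0.79 to 0.27). SLC25A29, a carrier of basic amino acids, differed by 0.03 (SE 0.27). SLC25A44, which in mouse brown fat imports branched-chain amino acids, was not well above background on the dim arrays and differed by −0.08 (SE 0.58).

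Cofactor and nucleotide carriers feed mitochondrial enzymes and genome upkeep. All 7 on the array were tested, 5 were above 0 and 2 below, and 1 had an unadjusted p under 0.05. This was SLC25A33 (chr16:44801886-44801945, minus strand), a carrier of pyrimidine nucleotides. It stood at −1.57, 0.70, −0.04 and −0.02 on the 4 g arrays, against −0.78, 0.59, 1.54 and 1.33 on the 0 g arrays. The groups overlapped, animal 19 was the lowest at both doses, and 3 of 4 animals were lower at 4 g. The difference was −0.90 (95% CI −1.71 to −0.10; limma, adjusted p = 1.00).

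SLC25A33 was spread unevenly over the animals. Its difference was −1.47 in animals 23 and 24 and −0.34 in animals 19 and 20. It was −0.68 without animal 23 and −0.75 without animal 24. Without the block and the dim arrays, which leaves animal 19 only at 0 g and animal 20 only at 4 g, it was −0.48. Over 19 alternatives it ran from −1.47 to −0.34, was below 0 in all 19, and had an unadjusted p under 0.05 in 11, with adjusted p of 0.837 to 1.00. On animals 23 and 24 alone the 4 g and 0 g arrays agreed closely between the animals, which is also how the 9 doubtful probes behaved. Whether the labels of these arrays have a part in the result was not tested.

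**Figure D2:**
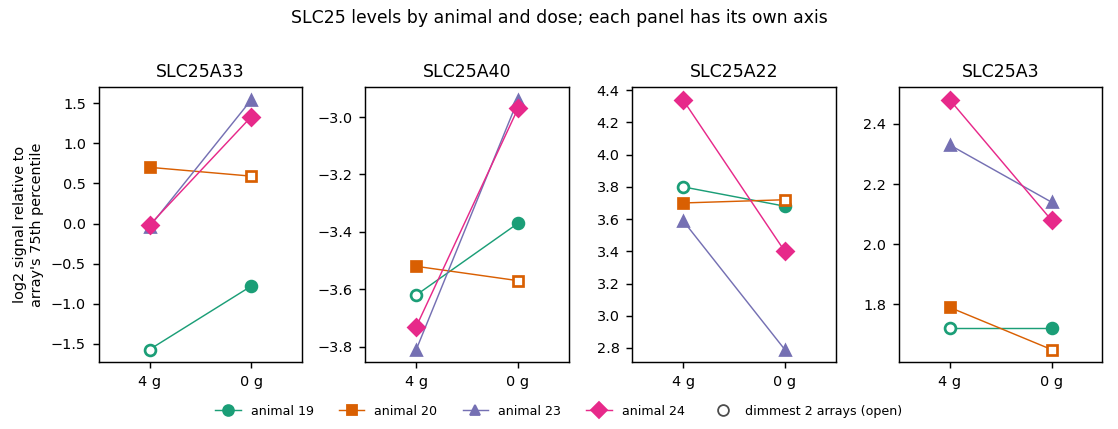
Levels of SLC25A33, SLC25A40, SLC25A22 and SLC25A3 (log2 signal relative to the array's 75th percentile), with 4 g left and 0 g right and a line for each animal; open symbols are the dim arrays. In the first 3 panels the lines of animals 23 and 24 are steep, at mean differences of −1.47, −0.82 and 0.87, while those of animals 19 and 20 average −0.34, −0.10 and 0.05.

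Among the other cofactor carriers, SLC25A36, the second pyrimidine nucleotide carrier, differed by −0.14 (95% CI −0.97 to 0.69). SLC25A42, a coenzyme A carrier, differed by 0.05 (95% CI −0.93 to 1.03), and SLC25A16, a relative tied to coenzyme A, by 0.20 (SE 0.28). SLC25A26, which imports the methyl donor S-adenosylmethionine, differed by 0.09 (SE 0.30), and the peroxisomal carrier SLC25A17 by 0.05 (SE 0.23). SLC25A51, a NAD carrier held under another name in the files, differed by −0.08 (SE 0.29).

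The acylcarnitine carrier SLC25A20 (chr22:51652477-51652536) brings long-chain fatty acids to oxidation. It averaged 3.66 ± 0.25 at 4 g and 3.42 ± 0.19 at 0 g (SD, n = 4 each), with a difference of 0.24 (95% CI −0.30 to 0.79). The mitoferrins import iron. SLC25A28 (mitoferrin-2) differed by −0.15 (SE 0.31). The probe named SLC25A37 (mitoferrin-1), whose transcript the current RefSeq table gives as LOC523756, stood at −2.49 on the 4 g array of animal 19 and between −4.00 and −3.55 on the other 7, and differed by 0.14 (SE 0.35). Mitoferrin-1 is abundant in developing red cells. Of 8 red blood cell markers, 3 to 6 were well above background on each array, with SLC4A1 and HEMGN on 0 arrays. The means of the 8 ran from −4.94 to −3.89. HBA stood high, at 2.45 to 3.28, while HBB lay at −6.26 to −3.61 and ALAS2 at −7.97 to −4.28.

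In the uncoupling protein branch, SLC25A14 and SLC25A27, known from brain, differed by −0.07 (SE 0.30) and −0.14 (SE 0.33). SLC25A30, a kidney-rich relative, stood at −1.24, −2.41, −2.79 and −2.69 at 4 g, against −3.21, −1.87, −3.08 and −3.25 at 0 g. The dim array was the highest of each group. Its difference was 0.57 (95% CI −0.43 to 1.57), and it was 0.10 without animal 19, 0.94 without animal 20 and 0.13 with normexp background correction. UCP2, held under its own name, differed by −0.10 (SE 0.55), and UCP1 was well above background on 0 arrays and UCP3 on 1.

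The carriers of less certain substrate were 4, of which 3 lay above 0 and 1 below. SLC25A47, a liver-rich carrier, stood at −1.75 on the 4 g array of animal 19 and between −0.62 and 0.22 on the other 7, and differed by −0.09 (95% CI −0.91 to 0.73). SLC25A46, an outer membrane protein of mitochondrial shape, differed by 0.26 (SE 0.39), with 1.65 in animal 24 and −0.37 to 0.05 in the others. SLC25A45 and SLC25A48 differed by 0.03 (SE 0.32) and 0.10 (SE 0.29).

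Carrier levels were also compared between the dim arrays and the others. Both dim arrays lay below the other 6 in 12 of 36 carriers (33.3%), against 19.7% of all probes. These were SLC25A1, SLC25A4, SLC25A5, SLC25A6, SLC25A11, SLC25A13, SLC25A15, SLC25A17, SLC25A21, SLC25A26, SLC25A44 and SLC25A47. Both lay above the other 6 in 5 carriers (13.9%), against 24.3% of all probes: SLC25A16, SLC25A29, SLC25A30, SLC25A36 and SLC25A42. Each dose holds 1 dim array, in different animals.

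The size of the shift differed among carriers with related roles. The mean of the dim arrays minus that of the other 6 was −2.96 for SLC25A6, −2.67 for SLC25A5 and −0.67 for SLC25A4. It was −2.08 for SLC25A44, −1.40 for SLC25A11 and −1.28 for SLC25A21, and it was 1.35 for SLC25A30 and 1.21 for SLC25A42. Shifts below −1 occurred in 5 carriers (13.9%, against 10.9% of all probes) and above 1 in 2 (5.56%, against 8.76%). Medians were 0.08 for the family and 0.12 over all probes.

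With normexp background correction, which works from raw means and local background, the shift was −1.95 for SLC25A6, −1.52 for SLC25A5 and −0.73 for SLC25A4. Shifts below −1 then occurred in 2 carriers (5.56%, against 2.67% of all probes) and above 1 in 0 (against 121 of 10985 probes). Both dim arrays lay below the other 6 in 9 of the 36 carriers, against 9.40% of all probes, and above them in 1 (2.78%, against 8.80%). The shift of 6 carriers changed side, to 0.13 for SLC25A44, 0.31 for SLC25A21, 0.01 for SLC25A26, 0.31 for SLC25A14, 0.33 for SLC25A35 and 0.18 for SLC25A40. When the fit held a term for the dim arrays beside the animal block, a setting chosen after seeing the data, the SE of SLC25A6 was 0.24 in place of 0.87 and that of SLC25A5 was 0.20 in place of 0.73. In that fit SLC25A30 had an unadjusted p under 0.05 at the same difference of 0.57 (limma, adjusted p = 1.00, and 0.971 to 1.00 over all alternatives).

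**Figure D3:**
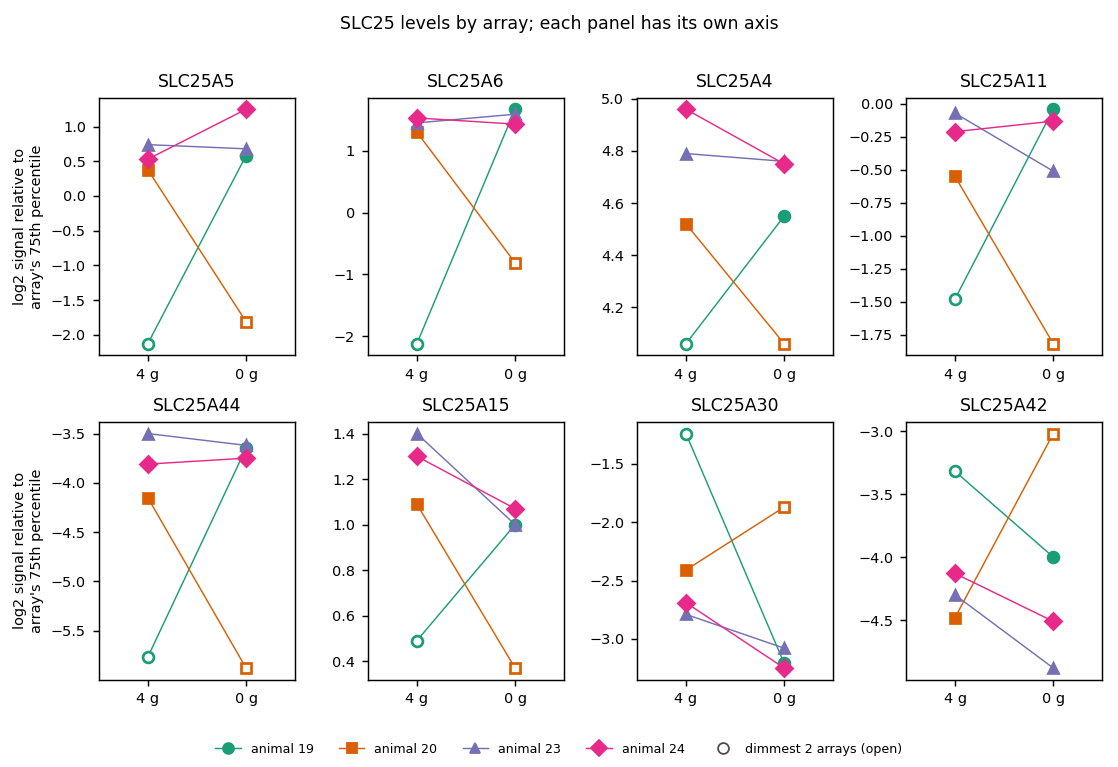
Levels of 8 carriers by array (log2 signal relative to the array's 75th percentile), 4 g left and 0 g right, with a line for each animal and open symbols for the dim arrays. SLC25A5, SLC25A6, SLC25A4, SLC25A11, SLC25A44 and SLC25A15 have both open symbols below all filled ones, and SLC25A30 and SLC25A42 have both above.

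Differences between animals were tested with an F-test in limma. Of the carriers 0 passed an adjusted p of 0.05, as did 0% of all probes, and 1 (2.78%, against 2.71% of all probes) had an unadjusted p under 0.05. This was again SLC25A33 (limma, adjusted p = 0.985), with animal 19 lowest at both doses. Animals 23 and 24 lay above animals 19 and 20 on all arrays in SLC25A3 and SLC25A4, or 5.56% of carriers against 3.71% of all probes. They lay below in 0 carriers, against 5.80% of all probes. Animal and slide row cannot be told apart in these counts.

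Within animals 23 and 24, both 4 g arrays lay below both 0 g arrays in 6 carriers (16.7%, against 13.2% of all probes): SLC25A12, SLC25A33, SLC25A35, SLC25A36, SLC25A38 and SLC25A40. Both lay above in 10 carriers (27.8%, against 20.2% of all probes), among them SLC25A3, SLC25A4, SLC25A15, SLC25A20 and SLC25A22. In these animals the 0 g array of animal 23 also had the high mean of pancreatic markers. Without that array and the block, SLC25A33 differed by −0.61 (SE 0.63).

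Genes that work beside the carriers were counted from lists. The first list also holds UCP1, UCP2, UCP3, MTCH1 and MTCH2, members of the SLC25 family under other names that the rule left out. Among other transporters of mitochondrial membranes, 23 of 26 on the array were tested, 13 were above 0 and 10 below, and 0 passed the adjusted threshold (limma). An unadjusted p under 0.05 was found for 1 (4.35%, against 1.09% of all probes), the serine transporter SFXN1. It stood at 2.17, 0.47, 1.57 and 1.28 on the 4 g arrays of animals 19, 20, 23 and 24, against 1.63, 0.50, −1.55 and −1.31 on the 0 g arrays. Its difference was 1.56 (SE 0.57; limma, adjusted p = 1.00), and nearly all of it lay in animals 23 and 24. In this list 12 members (52.2%) had both dim arrays below the other 6, against 19.7% of all probes, and 4 (17.4%) had both above, against 24.3%. The family members UCP2, MTCH1 and MTCH2 are among the 12. The share with both dim arrays below was smaller in the lists given next. It was 3 of 22 tested enzymes that use what the carriers deliver, and 5 of 20 tested genes of mitochondrial import and structure. Both dim arrays lay above the other 6 in 1 of these enzymes and in 3 of these import and structure genes. The pyruvate carrier subunit MPC1 differed by 0.06 (SE 0.25) and the outer membrane channel VDAC1 by 0.16 (SE 0.24).

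Of the enzymes that use what the carriers deliver, 22 of 24 were tested, 12 were above 0 and 10 below, and 0 passed the adjusted threshold. An unadjusted p under 0.05 was found for 2 (9.09%, against 1.09% of all probes), CS and OTC. Citrate synthase (CS) stood at 0.35, −0.54, −0.53 and −0.66 at 4 g, against 0.31, 0.12, 0.52 and 0.66 at 0 g, with a difference of −0.75 (SE 0.29; limma, adjusted p = 1.00). The urea cycle enzyme OTC, which uses ornithine brought in by SLC25A15, was higher at 4 g in 4 of 4 animals. It stood at 1.09, 0.30, 0.27 and 0.52 at 4 g, against 0.56, 0.27, −0.90 and −0.37 at 0 g, and differed by 0.65 (SE 0.27; limma, adjusted p = 1.00). In both genes the 2 widest steps were those of animals 23 and 24. Of the genes of mitochondrial import and structure, 20 of 22 were tested, 12 were above 0 and 8 below, and 0 had an unadjusted p under 0.05, with differences from −0.39 in TOMM20 to 0.34 in MFN1.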

How the data were processed

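Liver RNA of 4 cattle was measured on 8 arrays, all on 1 slide and 1 scan. Per the file headers, the deposited intensity values are Feature Extraction 11.0.1.1 processed signals, background-subtracted and spatially detrended, beside mean signals, local backgrounds and quality flags; the submitters' processing notes name version 9.5. The authors also deposited a series matrix of log2 values. Its columns correlated at 1.0000 with the log2 processed signal of each array, had column medians of −3.04 to −2.84, and lay on the 75th percentile scale within 0.054 to 0.069.

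Here log2 of the processed signal was taken, 48 outlier spots and 536 control features of 15646 were left out, spots of 1 probe were averaged, and the array's own 75th percentile was taken off each value. Between 64.4% and 80.4% of probes were well above background and 0 spots were saturated. The arrays are few, with 4 in each group, and what set the precision was not tested. The 10985 probes well above background on at least 4 arrays were fitted with limma 3.58.1 (R 4.3.3, version 1.17.8 of data.table; lmFit and eBayes, 2-sided), blocked by animal, with p-values adjusted by Benjamini and Hochberg's method at 0.05. The code was tested on simulated data.

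The pairing comes from the animal numbers in the labels. For animals 19, 20, 23 and 24, the deviations of both arrays from their group means had correlations of −0.19, −0.18, 0.21 and 0.13. Across animals, the 4 g array of animal 23 correlated with the 0 g array of animal 24 at 0.55. The 4 g array of animal 24 correlated with the 0 g array of animal 23 at only 0.13. Each group mean holds 1 dim array, and the 0 g mean also holds the array with high pancreatic markers. These correlations therefore cannot settle which arrays share an animal. Probes with separated levels had a gap over 1.5 log2 units and over 1.3 times the wider side's range.

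The members, the 7 role lists, 3 pathway lists and marker lists, and the probe pattern were chosen with earlier results of these data known. Named genes were, by rule, up to 4 per role with the smallest p for dose, the 10 with the smallest p between animals, and a set of liver carriers. The other members are also given, except 1 that is counted but whose values are not reported here, and pathway genes were named after their values were seen. The 39 probes were looked up by transcript accession in RefSeq (ARS-UCD2.0, names only). The current symbol was the same for 32 and another one for 2. For 5 no accession matched, so their names were not checked, and SLC25A33 is among them. Kupffer cell markers (8 of 8) were well above background on every array. Of the muscle markers, 1 to 4 of 8 were so on each array, and of the adipocyte markers, 2 to 4 of 6. Alternatives covered background correction, normalization, filter, block, left-out animals and arrays, variance model and the authors' matrix.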

Additional observations from a re-analysis of the deposited data

Results flagged for a closer look

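In each carrier and dose group of 4 arrays, the array at either end was compared with its nearest neighbour, and 8 of 72 groups held an array whose gap to the others passed Dixon's 95% critical value. Chance gives about 1 in 20 where groups are independent, but these groups share the same 8 arrays. The share over all tested probes was not counted, so the 8 are not read as a trait of the family. Of the 8, 7 lay on the dim arrays. On the 4 g array of animal 19, SLC25A1 stood at 1.35 (the other 4 g arrays at 2.01 to 2.13), SLC25A5 at −2.13 (0.38 to 0.74) and SLC25A6 at −2.12 (1.30 to 1.53). On the 0 g array of animal 20, SLC25A6 stood at −0.81 (the other 0 g arrays at 1.43 to 1.67), SLC25A15 at 0.37 (1.00 to 1.07) and SLC25A44 at −5.88 (−3.75 to −3.62), all low, and SLC25A30 was high at −1.87 (−3.25 to −3.08). The remaining one was the aspartate/glutamate carrier SLC25A12, low at −4.51 on the 0 g array of animal 19, with the other 0 g arrays at −3.82 to −3.75.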

How the results depend on the processing

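In all 19 alternatives (18 planned, 1 chosen after seeing the data) 0 carriers passed the adjusted threshold for dose with limma, and the smallest adjusted p was 0.837. The count of carriers lower at 4 g with an unadjusted p under 0.05 was 1, SLC25A33. The count was 0 with normexp, with no replicate block, with animals 19 and 20 alone and without the 0 g array of animal 23. It ran from 0 to 1 when each animal was left out. With animals 23 and 24 alone and with array weights it was 2, SLC25A33 and SLC25A40. Without the 2 dimmest arrays it was still 1, but this was SLC25A40, at −0.60, and SLC25A33 was not counted. The count higher at 4 g was 0, and it was 1 with animals 23 and 24 alone (SLC25A22), without the 2 dimmest arrays (SLC25A30), with array weights (SLC25A22) and with the replicate block plus a term for the dimmest arrays (SLC25A30). The cause was not tested. The family median was −0.09 with animals 19 and 20 alone, and −0.01 to 0.14 when each animal was left out. Between 0 and 13 of the 36 differences turned sign per alternative, and 9 carriers kept their sign in every one, among them SLC25A3, SLC25A20, SLC25A22, SLC25A30, SLC25A33, SLC25A38 and SLC25A40. With normexp the median over all probes was −0.05, against 0.03, and 10 of 36 carriers lay above 0 in place of 20. The unadjusted count over all probes, 120, ranged from 16 (animals 19 and 20 alone) to 451 (animals 23 and 24 alone), and was 103 with no replicate block; without the 2 dimmest arrays 5 of all probes passed the adjusted threshold, with 0 carriers among them. Between animals, the unadjusted count of 1 was 0 with normexp and without animal 19. Signal near background limits SLC25A21, SLC25A35, SLC25A27, SLC25A44, SLC25A46 and SLC25A14.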
